A study of Mus musculus with 8 samples.

Results

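The transcription factors that act before or together with PPARgamma in fat cell formation were followed in embryonic mouse skin with and without an intact Pparg gene. They were 10 genes, taken from the 19938 genes that the array's annotation names unambiguously: Cebpb, Cebpd, Cebpa, Klf5, Klf15, Ebf1, Ebf2, Zfp423, Prdm16 and Stat5a. Genes were chosen by name from general knowledge of adipogenesis and not by their values in these samples, but earlier results of these data were known at that choice. Each of the 10 is read by a single transcript cluster, a set of probes along a gene whose summary gives 1 value per array, and all 10 passed the brightness filter that left 15174 genes for testing. RNA of full-thickness skin at E17.5 was measured on 8 Affymetrix whole-transcript arrays. The 4 control arrays carried RNA of embryos labelled PPARgamma wildtype, and the other 4, called the labelled-null arrays, carried RNA of embryos labelled PpargΔ/Δ or PPARgamma null. All embryos had a mixed C57BL6/SV129 background, and no treatment other than the genotype is named. The labels used here give neither the deleted part of Pparg nor the way it was deleted, and neither litter nor sex.

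Adipocytes arise from mesenchymal precursors through a relay of transcription factors. Ebf1, Ebf2, Zfp423 and Prdm16 mark or direct precursor commitment, with Ebf2 and Prdm16 favouring the brown fate. Cebpb and Cebpd respond first to the differentiation stimulus, Klf5 and Stat5a add to the activation of Pparg, and Klf15 acts later on metabolic genes. PPARgamma and C/EBPalpha then sustain each other's expression and switch on the genes of lipid storage. Several of these factors also work outside fat: C/EBPalpha, C/EBPbeta and Klf5 are expressed in keratinocytes, Ebf1 in dermal mesenchyme, Klf15 in muscle and Prdm16 in vessels and cartilage. A value from full-thickness skin averages over all these cells, so fewer cells of a type and less RNA per cell cannot be told apart.

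The deposited values are log2 values, scaled between arrays, on which a difference of 1 is a factor of 2. Array medians lay between 6.93 and 6.96, and pairs of arrays correlated across all 35556 clusters at r = 0.989 to 0.994. Pparg RNA did not check the labels: its cluster (10540897) read 9.12 ± 0.10 (SD, n = 4) in the labelled-null group and 8.94 ± 0.13 (SD, n = 4) in the control group (limma adjusted p = 0.9995). Whether its probes lie in the deleted part is not given in the labels. Directions below are therefore those of the groups as labelled. Sex, absent from the labels, can be read from Xist, an RNA of the inactive X chromosome in females. Its control values were 12.24, 4.86, 5.39 and 12.27, in array order. Those of the labelled-null group were 5.08, 5.23, 12.17 and 12.10. High and low Xist arrays were thus equally many per group, and the group difference was -0.046. In the labelled-null group arrays 3 and 4 were the high ones. Whether this bears on values that stand out there was not tested. By the first principal component, which held 40.8% of the variance of the tested genes outside the sex chromosomes, the array farthest from the rest was labelled-null array 4, with a score of -21.7. The other 7 lay between -8.62 (control array 1) and 9.02 (labelled-null array 3). Replicates are individual RNAs. Each limma p-value sets a group difference against the spread between replicates, moderated over all tested genes. Litter is not given, so whether the replicates are independent was not tested.

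None of the 10 factors passed the test in the labelled-null skin. The count was 0 of 10 at a limma adjusted p of 0.05, and 1 of 10, Zfp423, had an unadjusted p under 0.05. Among all 15174 tested genes, 18 passed, or 0.119%, and 3.61% had an unadjusted p under 0.05. Of the 10, 6 lay below control and 4 above, with differences from -0.15 to 0.041 and a median of -0.015 on the log2 scale. The median over all tested genes was -0.00058, and 50.3% of them lay below control. The median size of a difference, whatever its direction, was 0.040 for the 10 factors and 0.045 for all tested genes. The 95% confidence intervals, each for 1 gene and not adjusted for the number of genes, bound the difference in the full-thickness skin value. They do not bound a difference within 1 cell type of the skin. The widest-reaching of the 10 intervals, that of Ebf1, ended at a 1.23-fold lower level, so all 10 intervals lay within a 1.5-fold change in either direction, as did those of 98.1% of all tested genes.

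**Figure D1:**
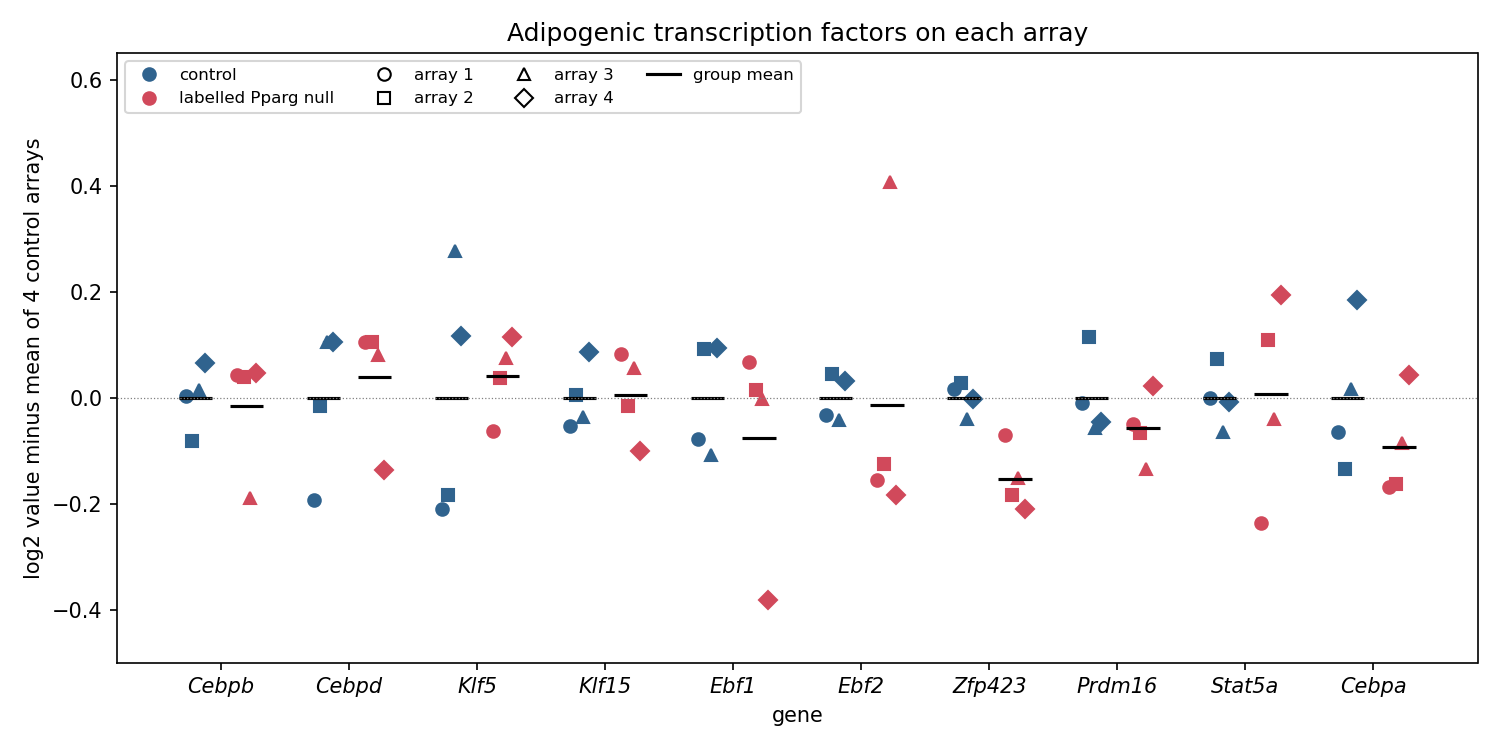
Log2 value of each of the 10 factors on each of the 8 arrays, minus the mean of the 4 control arrays of that gene (y axis, log2 units); blue symbols are control arrays, red symbols are labelled-null arrays, the shape gives the array number and black lines are group means. The groups overlap for 9 genes, and for Zfp423 all 4 red symbols lie below all 4 blue ones.

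Of the early inducers, Cebpb encodes C/EBPbeta, the leucine zipper factor that first answers hormonal induction. Cebpb read 8.35, 8.27, 8.36 and 8.42 on the control arrays and 8.39, 8.39, 8.16 and 8.40 on the labelled-null arrays. Labelled-null array 3 was the lowest of all 8, and the other 3 of its group lay inside the control range. The difference was -0.015 with a 95% confidence interval of -0.16 to 0.13 (limma adjusted p = 0.9995), and it changed sign, to 0.043, without labelled-null array 3.

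Cebpd encodes C/EBPdelta, which is induced alongside C/EBPbeta. It read 6.12, 6.30, 6.42 and 6.42 in control skin and 6.42, 6.42, 6.39 and 6.18 on the labelled-null arrays. The cluster is dim, with all values below the array medians. Control arrays 3 and 4 and labelled-null arrays 1 and 2 shared the same value, 6.4174, a tie that narrows the spread. Each group held a low array, control array 1 and labelled-null array 4, which have the lowest scores on the principal component. The groups overlapped throughout, and the difference was 0.038 with an interval of -0.15 to 0.22 (limma adjusted p = 0.9995). Without control array 1 it was -0.026.

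Of the Krüppel-like zinc finger factors, Klf5 is induced by the early C/EBPs and binds the Pparg promoter in preadipocytes, and it is also abundant in proliferating epithelium. Klf5 read 10.21, 10.23, 10.70 and 10.53 in control skin and 10.36, 10.46, 10.49 and 10.53 on the labelled-null arrays. The 4 control arrays spread more widely (SD 0.24) than the other 4 (SD 0.08), and enclosed all of them. The difference was 0.041 with an interval of -0.20 to 0.28 (limma adjusted p = 0.9995), and it changed sign without control array 1 or 2.

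Klf15 promotes the glucose transporter Glut4 and other metabolic genes in fat and muscle. It read 6.95, 7.01, 6.97 and 7.09 in control skin and 7.09, 6.99, 7.06 and 6.90 on the labelled-null arrays. These ranges nearly coincided. With a difference of 0.0051 and an interval of -0.12 to 0.13 (limma adjusted p = 0.9995), Klf15 had the smallest difference of the 10, and smaller ones belonged to 5.99% of all tested genes.

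Among the commitment factors, Ebf1 is an early B-cell factor that also acts in mesenchymal precursors, upstream of Pparg and Cebpa. Ebf1 read 10.25, 10.42, 10.22 and 10.42 in control skin and 10.39, 10.34, 10.32 and 9.94 on the labelled-null arrays. Labelled-null array 4 was far below the other 7 arrays, and the other 3 of its group lay inside the control range. The difference was -0.076 with an interval of -0.30 to 0.15 (limma adjusted p = 0.9995), and without labelled-null array 4 it was 0.026. Early B cells express Ebf1 as well. Of the 4 B cell markers that the annotation names, 2 passed the brightness filter, and their mean lay between 6.33 and 6.56 in control skin and 6.29 and 6.43 on the labelled-null arrays; the part of B cells in the Ebf1 value was not tested.

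Ebf2 marks precursors of brown and beige fat. It read 7.26, 7.34, 7.25 and 7.32 in control skin and 7.14, 7.17, 7.70 and 7.11 on the labelled-null arrays. Of the latter, 3 lay below every control array, and labelled-null array 3 lay above every control array. The difference was -0.014 with an interval of -0.28 to 0.25 (limma adjusted p = 0.9995). Without labelled-null array 3 it was -0.15, with no call either. On that array Zfp521, a zinc finger protein that binds EBFs and restrains adipogenesis, was also the highest of its group, at 9.41, with 9.12 to 9.14 on the other 3. Skeletal muscle markers were highest there too: 7 of 9 tested markers had their top value of all 8 arrays on it, and their mean was 11.02 there, with 10.46 to 10.79 on the remaining labelled-null arrays and 10.60 to 10.86 in control skin. The mean of the macrophage markers was also highest on that array, at 8.0, with 5 of 8 at their top value. So was that of the brown adipocyte markers, at 7.61, with 3 of 5, namely Cox8b, Cox7a1 and Ppargc1a. The brown marker of smallest p, Cidea, went the other way and was lowest of its group there. It read 6.27, with 6.34 to 6.40 on the remaining labelled-null arrays. The part of tissue composition in the Ebf2 value was not tested.

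Zfp423, a zinc finger protein that binds EBFs and SMADs and commits precursors to the white fat lineage, had the largest difference of the 10. Zfp423 read 8.13, 8.14, 8.07 and 8.11 in control skin and 8.04, 7.93, 7.96 and 7.90 on the labelled-null arrays. All 4 of the latter lay below all 4 control arrays. The control mean was 8.12 ± 0.03 and the other mean 7.96 ± 0.06 (SD, n = 4 each), a 1.11-fold lower level. The log2 difference was -0.15 (SE 0.048, 95% confidence interval -0.26 to -0.046), and it missed the threshold over all genes (limma adjusted p = 0.9995). By unadjusted p it ranked 139 of 15174. Groups that did not overlap, with the lower values on the labelled-null arrays, occurred in 1.67% of all tested genes, and in 1 of the 10 factors. Leaving out any 1 array gave differences from -0.18 to -0.14, and leaving out control array 1 together with labelled-null array 4 gave -0.13. Zfp423 was steady within the groups, since 7.89% of tested genes had a smaller spread between replicates.

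Prdm16 encodes a zinc finger coregulator that holds brown fat identity. Prdm16 read 6.97, 7.10, 6.93 and 6.94 in control skin and 6.94, 6.92, 6.85 and 7.01 on the labelled-null arrays. The groups overlapped. The difference was -0.057 with an interval of -0.18 to 0.070 (limma adjusted p = 0.9995), and it stayed below 0 with any 1 array left out.

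Stat5a carries growth hormone and prolactin signals to the nucleus and activates Pparg in preadipocytes. It read 8.05, 8.13, 7.99 and 8.05 in control skin and 7.82, 8.16, 8.01 and 8.25 on the labelled-null arrays. The lowest and the highest of all 8 values, labelled-null arrays 1 and 4, both belonged to the latter group. The difference was 0.0060 with an interval of -0.19 to 0.20 (limma adjusted p = 0.9995), and it changed sign without any of 3 arrays, namely control array 3 and labelled-null arrays 2 and 4.

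Cebpa, which encodes C/EBPalpha, the partner that sustains PPARgamma in the maturing adipocyte, came second in size. Cebpa read 8.92, 8.85, 9.0 and 9.17 in control skin and 8.81, 8.82, 8.90 and 9.03 on the labelled-null arrays. Labelled-null arrays 1 and 2 lay below every control array, and arrays 3 and 4 lay inside the control range. The mean was 8.98 ± 0.14 (SD, n = 4) against 8.89 ± 0.10 (SD, n = 4), a log2 difference of -0.093 (SE 0.078, interval -0.27 to 0.081, limma adjusted p = 0.9995). It kept its sign with any 1 array left out, and was nearest 0, at -0.032, without control array 4. The 3 tested genes whose profile over the 8 arrays was most like that of Cebpa, by Pearson correlation as a description, were Rnf25 (r = 0.976), Lrp11 (r = 0.950) and Arrdc4 (r = 0.917), the highest of 15173. The points share their arrays, and the likeness was picked as the highest of many.

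**Figure D2:**
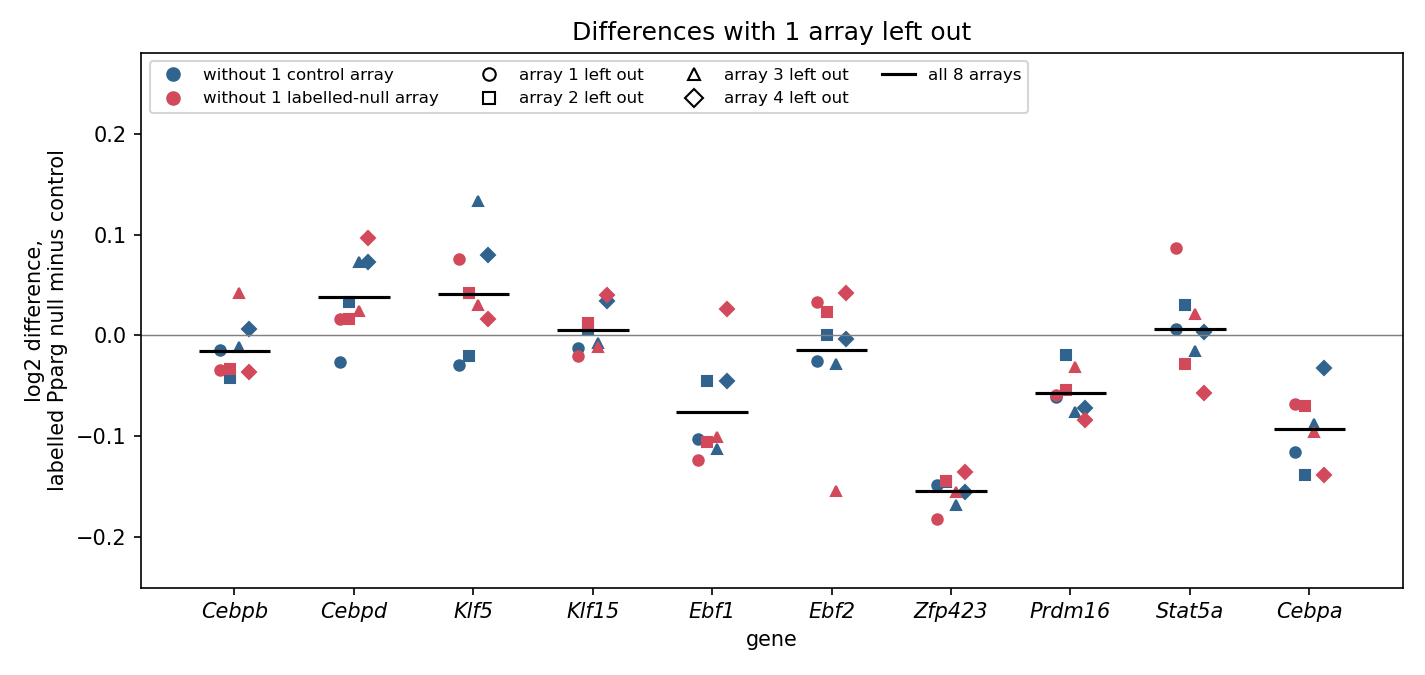
Log2 difference, labelled-null arrays minus control, of each factor with 1 of the 8 arrays left out; blue symbols leave out a control array, red symbols a labelled-null array, the shape gives the array number and the black line is the difference with all 8 arrays. Zfp423, Prdm16 and Cebpa stay below 0 in all 8 cases, and the other 7 genes have symbols on both sides of 0.

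The promoters of Zfp423, Cebpa and Cebpb are shown because Zfp423 was the factor whose groups did not overlap, and because Cebpb, an early C/EBP, and Cebpa mark the start and the end of the relay. Each is the stretch of 250 bases before a RefSeq start site, in build GRCm38.p6 and on the gene's own strand. Zfp423 has 2 such start sites, of which the upstream one is given, at chr8:87959596-87959845 on the minus strand. Cebpa lies at chr7:35119043-35119292 and Cebpb at chr2:167688665-167688914, both on the plus strand. Capitals mark matches to the motifs described next.
Zfp423: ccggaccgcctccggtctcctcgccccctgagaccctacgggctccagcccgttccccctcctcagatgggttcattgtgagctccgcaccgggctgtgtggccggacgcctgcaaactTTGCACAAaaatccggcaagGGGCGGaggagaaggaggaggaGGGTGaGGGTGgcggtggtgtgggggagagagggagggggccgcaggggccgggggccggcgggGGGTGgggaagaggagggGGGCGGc
Cebpa: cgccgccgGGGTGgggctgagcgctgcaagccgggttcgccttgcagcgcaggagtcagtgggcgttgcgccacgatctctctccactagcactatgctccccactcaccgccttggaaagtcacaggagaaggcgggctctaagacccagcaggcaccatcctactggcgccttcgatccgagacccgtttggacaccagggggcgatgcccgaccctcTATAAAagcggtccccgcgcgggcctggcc
Cebpb: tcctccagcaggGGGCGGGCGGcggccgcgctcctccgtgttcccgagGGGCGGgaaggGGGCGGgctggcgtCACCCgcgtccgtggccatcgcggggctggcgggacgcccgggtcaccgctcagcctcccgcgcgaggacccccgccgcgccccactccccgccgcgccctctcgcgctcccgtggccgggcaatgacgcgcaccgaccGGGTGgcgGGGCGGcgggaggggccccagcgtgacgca

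A C/EBP motif, TTGCNNAA on either strand, occurred once in the Zfp423 stretch, as TTGCACAA from 131 to 124 bases before the start. It was absent from the other 9 stretches of the 7 factors that the promoter table held, which do not include Cebpd, Klf5 and Ebf2, and 9.56% of all 32851 promoter stretches of this length hold it. The GC box GGGCGG stood in 6 of the 10 stretches, 5 times in that of Cebpb, against 32.7% of all stretches. The KLF motif CACCC stood in 9 of 10, against 52% of all. Cebpa had a TATA box, TATAAA, from 30 to 25 bases before its start, the only one among the 10 stretches, against 12.4% of all. The E-box CACGTG stood in the stretch of Klf15 alone, against 6.02% of all. The palindromic EBF motif (0.779% of all) and the STAT motif TTCNNNGAA (7.02% of all) matched none of the 10. In these stretches the KLF and GC box matches overlapped once, at the downstream start site of Zfp423. A match is a string of letters in this window and not a measured binding site.

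The relatives and partners of the 10 factors also held no gene past the test. In the C/EBP network, which comprises other family members and the proteins that bind, activate or degrade them, 0 of 9 tested genes passed, 3 lay below control and 6 above, and the median difference was 0.022. Its smallest p belonged to Id2, a helix-loop-helix inhibitor of differentiation (0.12, limma adjusted p = 0.9995). Of the other Krüppel-like factors, 0 of 14 passed, with 10 below and 4 above and a median of -0.011. Klf8 read 6.84 to 6.89 in control skin and 6.90 to 7.08 on the labelled-null arrays, which differed by 0.14 without overlap (limma adjusted p = 0.9995). Groups that did not overlap, with the higher values on the labelled-null arrays, occurred in 0.784% of all tested genes. The EBF network had 0 of 3 past the test and a median of 0.034. The partners and relatives of Prdm16 had 0 of 7 and a median of 0.0099. Mecom, the closest relative of Prdm16, differed by 0.15 at the brighter of its 2 clusters (limma adjusted p = 0.9995). With the mean of its clusters the difference was 0.19 (limma adjusted p = 0.9999).

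In the STAT5 pathway 0 of 9 tested genes passed, with 6 below and 3 above control and a median of -0.055. Its members differed most on labelled-null array 4. Socs2 and Cish, feedback inhibitors that STAT5 induces, read 8.13 and 7.60 there, with 9.54 to 9.74 and 8.20 to 8.27 on the remaining labelled-null arrays. Bcl6, a repressor that STAT5 holds down, read 8.43 on that array and 7.60 to 7.87 on the other 7. These 3 genes were named after their values were seen. Stat5a itself had its highest value on the same array. Several marker lists had their extreme mean there as well. The suprabasal epidermis markers had their highest, 12.43, with 12.12 to 12.21 on the remaining labelled-null arrays and 12.03 to 12.29 in control skin, and the hair markers their lowest, 6.10, with 6.52 to 6.89 and 6.50 to 7.26. Sebocyte (7.03) and neutrophil (5.98) markers were also at their highest mean, and skeletal muscle (10.46, with 6 of 9 markers at their lowest value) and macrophage (7.79) markers at their lowest. Of the 4 sebocyte markers, 1 had its top value there and 1 its lowest. The top value was that of Far2, 10.58, with 7.91 to 8.37 on the remaining labelled-null arrays. A low mean on that array was not particular to the STAT5 pathway. The PRDM16 network (9.07, with 5 of 7 genes at their lowest value) and the EBF network (8.49) had their lowest mean there. So had the other pro-adipogenic factors (8.93, with 6 of 11) and the anti-adipogenic regulators (8.86, with 7 of 15). The C/EBP network (8.38) and the other Krüppel-like factors (8.46) had not. The part of tissue composition or stage in the STAT5 pattern was not tested.

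Of the other transcription factors that favour adipogenesis, 0 of 11 tested passed. Below control lay 7 and above it 4, beside 50.3% of all tested genes below, and the median was -0.040. An unadjusted p under 0.05 was found for 2 of the 11, beside 3.61% of all tested genes. Nr1h3 encodes the oxysterol receptor LXRalpha. It read 6.44, 6.40, 6.41 and 6.51 in control skin and 6.34, 6.14, 6.18 and 6.31 on the labelled-null arrays. The difference was -0.20 (limma adjusted p = 0.998). Srebf1, which encodes the driver of fatty acid synthesis SREBP1, read 8.70, 8.82, 8.77 and 8.78 against 8.67, 8.67, 8.61 and 8.58, which differed by -0.14 (limma adjusted p = 0.9995). In both genes all 4 labelled-null arrays lay below all control arrays, as in 1.67% of all tested genes. Of the regulators that restrain adipogenesis, 0 of 15 tested passed, with 7 below and 8 above and a median of 0.016. Gata2, which represses Pparg in preadipocytes, differed by 0.14 and Foxo1, an insulin-restrained repressor of Pparg, by -0.14 (limma adjusted p = 0.9995 for each). Foxo1 was lowest on labelled-null array 4, at 8.65, with 8.90 to 8.92 on the remaining labelled-null arrays.

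**Figure D3:**
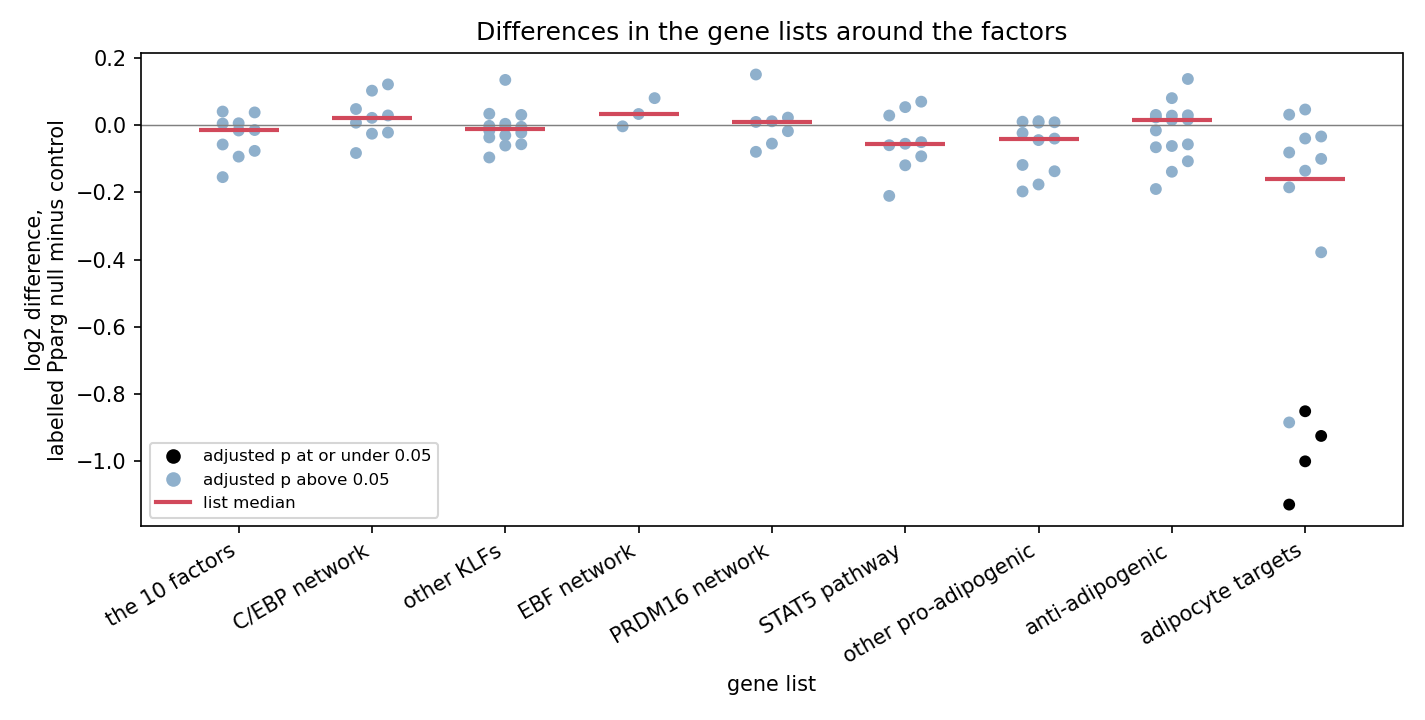
Log2 difference, labelled-null arrays minus control, of every tested gene in the 10 factors and in 8 gene lists around them; black points have a limma adjusted p at or under 0.05, light points do not, and the red line is the list median. The only black points are 4 adipocyte target genes, between -1.13 and -0.85.

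Of the 14 tested adipocyte genes that PPARgamma and C/EBPalpha are known to activate, 4 passed the limma threshold, all lower on the labelled-null arrays. Among all tested genes 0.119% passed. The other 10 did not, but Plin1 differed by -0.88 (limma adjusted p = 0.128) and Retn by -0.38 (limma adjusted p = 0.643), both without overlap. Of the 14, 7 had an unadjusted p under 0.05, beside 3.61% of all tested genes, and 6 lay lower without overlap, beside 1.67%. Adipoq, under the brightness filter, differed by -0.83. In the list 12 lay below control and 2 above, and the median difference was -0.16, or -0.10 with the brightness filter at the 50th percentile. Fabp4, the fatty acid binding protein of adipocytes, read 9.97, 10.20, 10.34 and 10.38 in control skin and 9.19, 9.04, 9.35 and 8.79 on the labelled-null arrays, which made a difference of -1.13 (interval -1.41 to -0.85, limma adjusted p = 0.0189). Cd36, Lpl and Aqp7, for fatty acid uptake, triglyceride hydrolysis and glycerol transport, were the other 3 past the threshold. The upper ends of the intervals of these 4 genes ran up to -0.59, that of Aqp7. The lower ends of the intervals of the 10 factors ran down to -0.30, that of Ebf1. Because these 4 genes were picked for passing the threshold in these data, intervals away from 0 follow from that choice. Intervals of some other targets, such as Slc2a4 (-0.21 to 0.13), overlap those of the factors. No test compared the factors with their targets directly. The count of 4 was 1, that of Cd36, with every cluster tested on its own, and 2 with the Xist value as a covariate. It was also 1 without control array 2, 3 or 4, or without labelled-null array 1 or 2. Fabp4 passed in 3, Lpl in 3, Aqp7 in 2 and Cd36 in 8 of the 8 fits with 1 array left out. This list holds genes that earlier results of these data had shown to be lower and is no independent support for that direction. Slc2a4, the Glut4 gene that Klf15 promotes, differed by -0.039 with overlapping groups (limma adjusted p = 0.9995).

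**Figure D4:**
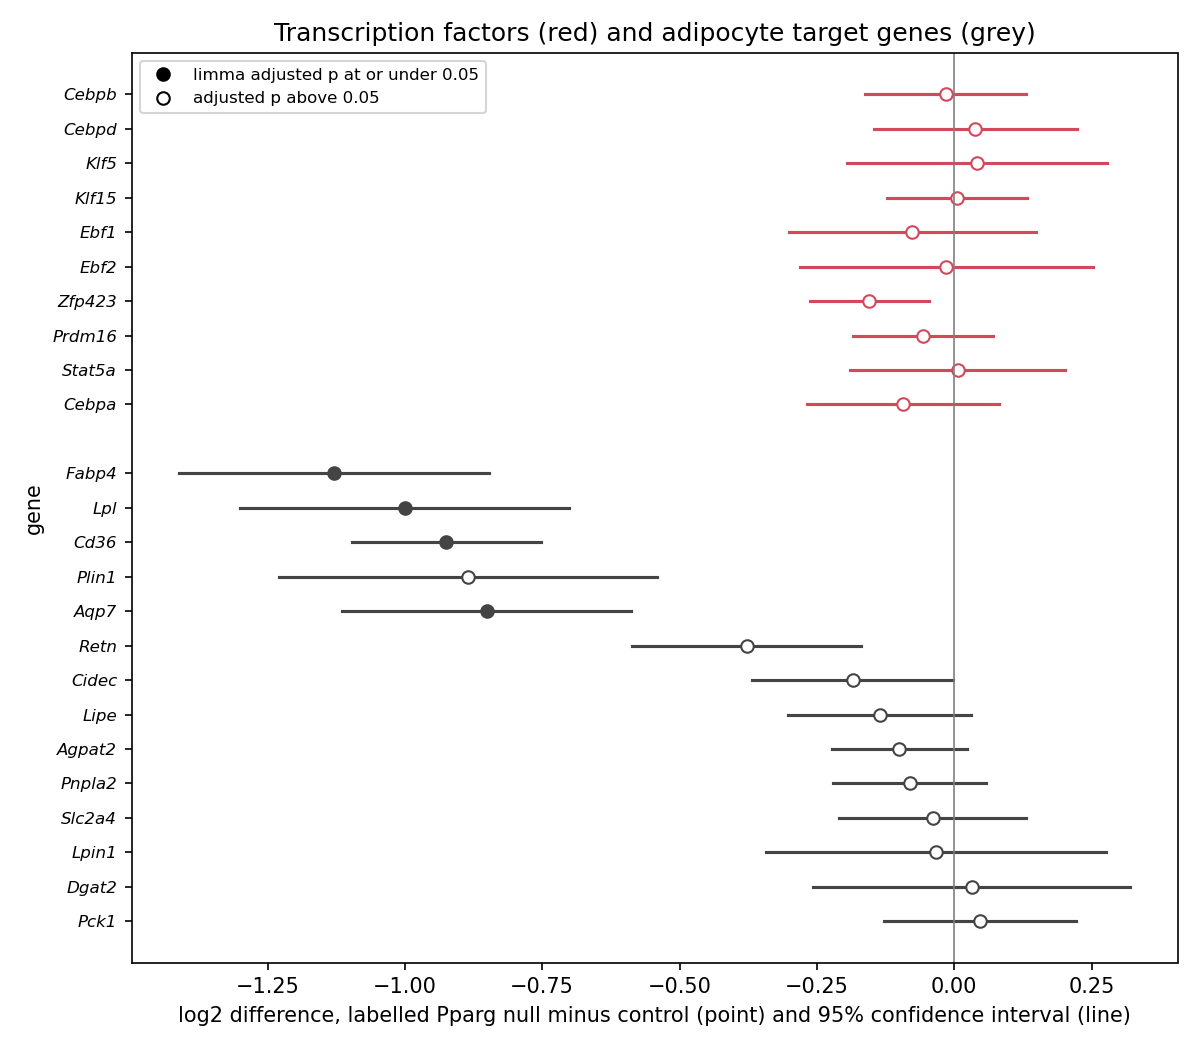
Log2 difference, labelled-null arrays minus control, with the limma 95% confidence interval for the 10 factors (red) and the 14 tested adipocyte target genes (grey); filled points have an adjusted p at or under 0.05. The red intervals reach no lower than -0.30, and the 4 filled grey points, picked by that threshold, lie at -0.85 or below. Some unfilled grey intervals, such as that of Slc2a4, overlap the red ones.

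**Figure D5:**
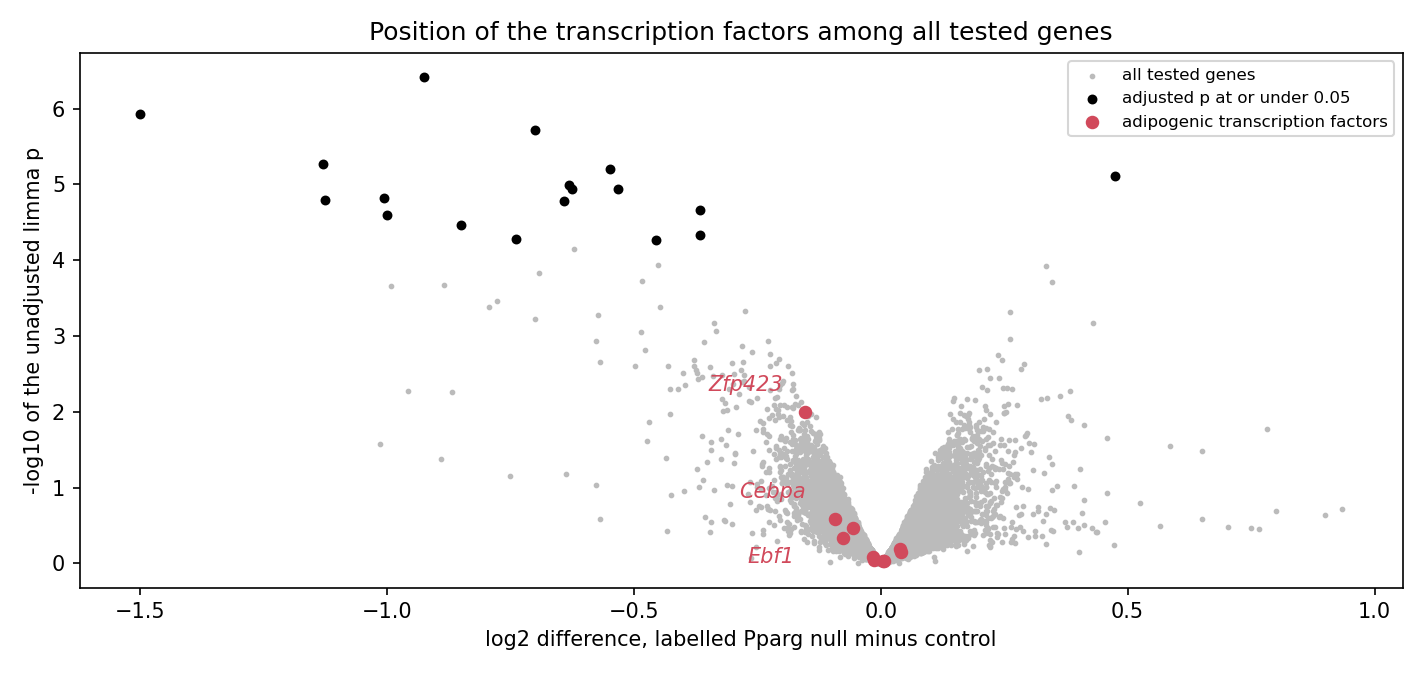
Log2 difference against the negative log10 of the unadjusted limma p for all 15174 tested genes (grey), the 18 past the threshold (black) and the 10 factors (red). Zfp423, at rank 139 of 15174 by unadjusted p, is the highest red point and lies above most grey points. The other red points lie within the dense body of grey points.

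Markers of the cell types that could carry these factors had median differences within 0.057 of 0, apart from the hair follicle. Fibroblast and adipose progenitor markers had a median difference of 0.012 over 7 tested genes, and Pdgfra, the receptor that marks fat precursors, differed by 0.045 (limma adjusted p = 0.9995). Macrophage markers had a median of -0.0095 over 8, skeletal muscle markers -0.032 over 9, suprabasal epidermis markers 0.057 over 6 and brown adipocyte markers 0.018 over 5, with 0 past the test in each. Cidea, a brown adipocyte marker, differed by 0.24 (limma adjusted p = 0.582). Its labelled-null values all lay above control, as in 0.784% of all tested genes. The brown fat uncoupler Ucp1 lay under the brightness filter, at 5.42 to 5.49 in control skin and 5.21 to 5.54 on the labelled-null arrays, and the neutrophil markers that passed it, 3 of 6, had a median of 0.017. Sebocyte markers had a median of 0.048 over 4 tested genes with 0 past the test, and this value was unstable. It was -0.19 without labelled-null array 4. With the brightness filter at the 50th percentile it was 0.34, which is the difference of Far2 alone and no list value. Among the sebocyte markers Mc5r, the melanocortin receptor of sebaceous glands, differed by -0.48 without overlap (limma adjusted p = 0.545). Hair markers lay lower in 9 of 9 tested genes, with a median of -0.36 and 0 past the test. The median was -0.66 with the filter at the 50th percentile, which keeps only part of the list. The mean of the tested hair markers ran from 6.50 to 7.26 in control skin and from 6.10 to 6.89 on the labelled-null arrays. Zfp423, the factor that was lower on all 4 arrays, shared the sign of the group difference with this list, but not the order of the arrays. Of the control arrays, array 3 had the highest hair mean (7.26) and the lowest Zfp423 value (8.07). Array 1 had the lowest hair mean there (6.50), with Zfp423 at 8.13. Of the labelled-null arrays, array 4 was lowest in both (6.10 and 7.90). The part of hair follicle content in the Zfp423 value was not tested.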

How the data were processed

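RMA in Affymetrix Expression Console made the authors' deposited log2 values, per the submitters' processing notes; versions and the annotation build: not given in the sources used here. RMA scales arrays to each other, so a shift of all genes together cannot be seen. Samples were grouped by title into 4 control and 4 labelled Pparg null arrays. Of 35556 clusters, 21789 had 1 symbol in the platform annotation (1621 several, 12146 none listed), updated by gene ID through a RefSeq table of GRCm38.p6 for 21698; a gene with several was read from its brightest cluster on average. A gene was tested when above its array's 30th percentile on at least 4 of 8 arrays. Differences were fitted on all tested genes without covariates by limma 3.58.1 in R 4.3.3 (lmFit, eBayes, two-sided, Benjamini-Hochberg, threshold 0.05). The fit was tested on simulated data. The rule for named genes (the 10 factors, up to 4 genes of smallest p per pathway list and 2 per marker list, adipocyte targets past the threshold, Pparg, Xist and the 3 genes most like Cebpa) gave 64 genes. The text names 29 of them, and that narrower choice was made after values and their checks were seen. Socs2, Cish, Bcl6, Ucp1, Pdgfra and Slc2a4 were named after their values were seen. So were Cidea, Cox8b, Cox7a1, Ppargc1a, Far2, Plin1, Retn, Adipoq and Xist. These last are given as limits and are not counted among the 29 or in the closing checks of named genes. The members and lists were chosen with earlier results of these data known. Alternatives were other filters, scalings, priors, weights, covariates, cluster rules, a stricter threshold and arrays left out. Promoter sequences are from RefSeq. The number of arrays, 4 a group, limits the precision.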

Additional observations from a re-analysis of the deposited data

Results flagged for a closer look

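Among 70 sets of 4 values (each gene named in the text, apart from those given as limits, in each group), 11 held 1 array far from the other 3 by Dixon's criterion. About 4, or 1 in 20, would be flagged by chance. Genes read on the same array are not independent of each other. The named genes are fewer than the rule for naming allowed, a choice made after values were seen: over all 64 genes of that rule, 16 of 128 such sets were flagged, where about 6 would be by chance.

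Of the 10 factors, Cebpb read 8.16 on labelled-null array 3, below 8.39 to 8.40 on the rest of its group. Ebf2 read 7.70 on that array, above 7.11 to 7.17. Cebpd read 6.18 on labelled-null array 4, below 6.39 to 6.42. Ebf1 read 9.94 on that array, below 10.32 to 10.39. The same labelled-null array 4 was low for Jak2, the kinase upstream of STAT5 (8.83, below 8.99 to 9.0), for Foxo1 (8.65, below 8.90 to 8.92), and for the STAT5 target genes Socs2 (8.13, below 9.54 to 9.74) and Cish (7.60, below 8.20 to 8.27). Labelled-null array 3 was high for Zfp521 (9.41, above 9.12 to 9.14) and for Actn3, the actinin of fast muscle fibres (8.30, above 6.95 to 6.99). Rnf25, one of the genes most like Cebpa, was high on labelled-null array 4 (8.89, above 8.71 to 8.73). Over all 8 arrays, labelled-null array 4 had the lowest value for 4 of the 10 factors and control array 4 the highest for 4, not counting the tied top value of Cebpd.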

How the results depend on the processing

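The count of factors past the threshold was 0 in every alternative fit. Of 189 values of a factor under another setting, 166 kept their sign and 23 did not; Zfp423, Prdm16 and Cebpa kept theirs in all. The median difference of the factors stayed between -0.044 and -0.00018. Centring arrays on their medians moved every gene by -0.012, which took Klf15 (-0.0065) and Stat5a (-0.0056), the factors nearest 0, below it; these 2 of the 23 changes are that common shift. Signs also changed with array weights for Stat5a (-0.019) and Bcl6 (-0.044), and, with control array 1 and labelled-null array 4 both left out, for Klf5 (-0.053), Ebf2 (0.031), Stat5a (-0.057), Socs2 (0.10), Cish (0.076) and Bcl6 (-0.14). Leaving out 1 array gave -0.043 to 0.043 for Cebpb, -0.026 to 0.097 for Cebpd, -0.029 to 0.13 for Klf5, -0.020 to 0.041 for Klf15, -0.12 to 0.026 for Ebf1, -0.15 to 0.042 for Ebf2, -0.057 to 0.087 for Stat5a, -0.37 to 0.17 for Socs2, -0.16 to 0.063 for Cish, -0.13 to 0.15 for Bcl6, -0.039 to 0.0031 for Lrp11 and -0.086 to 0.010 for Slc2a4. Over all 64 genes that the naming rule allowed, 21 changed sign in at least 1 alternative. The cause was not tested. The adipocyte target median was -0.12 without labelled-null array 3, -0.21 without labelled-null array 4 and -0.21 with control array 1 left out too; the sebocyte median was -0.11 with both out, that of the other Krüppel-like factors -0.050, and that of the anti-adipogenic list -0.038 without control array 1. The count of 18 genes over the whole table was 1 with the replicate block, 1 with every cluster on its own, 11 with Xist as a covariate, 3 at an adjusted p of 0.01, and 3 to 15 with 1 array left out. Same-numbered arrays correlated at r = -0.31, 0.20, 0.05 and -0.03 in their deviations from the group means. Of the control arrays, 0 of 4 correlated best with their own number. These 4 correlations show no pairing by number, but they are too few to settle whether arrays were paired, and litter is not given. The replicate block changed no call of a factor, and left 1 of the 4 adipocyte targets, Cd36, past the threshold.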
